A study of Mus musculus with 2 samples.

Results

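Conventional CD4 T cells of lupus-prone mouse kidneys were examined here in 2 single-cell RNA-seq libraries, 1 from young and 1 from old MRL-*lpr* mice. A cell barcode was taken as a conventional CD4 T cell, and is called a member below, when it held no fewer than 200 genes, a mitochondrial share of 20% at most among its UMIs (unique molecular identifiers, which count captured RNA molecules), at least 1 UMI of the CD3 genes *Cd3d*, *Cd3e* and *Cd3g* together and at least 1 *Cd4* UMI. It also had no UMI of the coreceptor genes *Cd8a* and *Cd8b1*, of *Foxp3*, which marks regulatory T cells, or of *Trdc*, the constant region of the γδ T cell receptor, and a UMI of fewer than 2 of the 4 cell cycle genes *Mki67*, *Top2a*, *Birc5* and *Cdk1*. These rules gave 1242 members among 21661 barcodes, with 122 of 11429 in the young library (1.07%, exact Clopper-Pearson 95% interval 0.887 to 1.27%) and 1120 of 10232 in the old library (10.9%, 10.3 to 11.6%). Of the barcodes with a CD3 UMI, 10.0% of 1215 young and 22.4% of 4995 old barcodes were members. Both groups carried the *lpr* mutation of *Fas*, the gene of a death receptor that removes activated lymphocytes, and the labels distinguish them by age alone. Each library pooled kidneys of several mice, and the leukocytes were enriched by density gradient, by a kit for innate lymphoid cells and by a sort of live cells, so that the shares above follow the preparation and are no frequencies in the kidney. With 1 library per age, no difference below has a replicate check or a p-value, and every interval covers counting error only.

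CD4 T cells recognise peptides on MHC class II molecules and direct other immune cells through secreted cytokines and surface ligands such as CD40 ligand, which licenses B cells and myeloid cells. Naive CD4 T cells recirculate through lymph nodes with homing receptors such as CCR7, and after activation they lose these and take on helper programs named after their leading cytokines, or cytotoxic features. In lupus nephritis, CD4 T cells infiltrate the kidney next to CD8 T cells, and in mice without functional Fas they are joined by T cells that carry neither coreceptor.

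The genes named in the rule chose the members, and their values describe the choice only. At the edge of the rule, 72 of 122 young and 408 of 1120 old members held exactly 1 *Cd4* UMI (chromosome 6, 124864692 to 124888221 in mm10), while 693 young and 2188 old barcodes met every condition except for a *Cd4* count of 0. Only 4 young and 10 old members had a single CD3 UMI. A further 5 young and 43 old barcodes with CD3 and *Cd4* UMIs stayed out for 1 UMI of *Cd8a* or *Cd8b1*, and 3 and 49 for 2 or more. Another 19 young and 68 old barcodes with CD3 and *Cd4* UMIs stayed out for a *Foxp3* UMI. Other markers of the class were also present. *Cd28*, the main costimulatory receptor, had a level of 351 counts per 1000000 UMIs (CPM, computed from a gene's UMIs and all UMIs pooled over the members) in young members and one of 648 CPM in old members. It had a UMI in 84.4% of young members and in 93.0% of old members, *Cd40lg*, the CD40 ligand gene, in 33.6 and 39.6%, and *Tnfsf8*, the CD30 ligand gene, in 13.9 and 42.2%. *Cd28* was not particular to the class. Young and old CD8 T cells had a UMI of it in 76.0 and 77.7%, and T cell barcodes with a *Foxp3* UMI in 82.5 and 85.2%.

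Members had similar depth at both ages, with medians of 5181 UMIs and 1818.5 genes in the young and 5252 UMIs and 1940.5 genes in the old library, and they summed to 962374 and 7532669 UMIs. Doublets, called by Scrublet, were kept and made up 8 young (6.56%) and 46 old (4.11%) members. The libraries shared 26 barcodes after filtering, none of them a member. The study's methods describe female mice, but 63 young and 397 old members held UMIs of Y-linked genes and none of *Xist*, against 18 and 395 with *Xist* alone. Markers of other leukocytes were carried by few members. Of 8 NK cell markers, at least 2 were present in 4.10% of young members and in 3.66% of old members, and their sums were 198 and 309 CPM, of which *Eomes*, also a T cell gene, made 4.16 and 115 CPM. *Tyrobp* had 118.5 and 107.4 CPM and *Fcer1g* 68.58 and 67.84 CPM, each with a UMI in 4.92% of young and 3.93% of old members. *Ncr1* had 2.08 and 11.4 CPM. The NK genes *Klra8* and *Klra4* had no UMI in members. *Klra8* had none in the other T cell classes either, and *Klra4* was in at most 0.144% of any of them, so their absence is uninformative. The 3 plasma cell markers summed to 8.31 and 978 CPM, nearly all of it *Jchain* in 7.05% of old members.

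RNA of proximal tubule cells was the main foreign signal. The 7 proximal tubule markers *Kap*, *Miox*, *Slc34a1*, *Slc27a2*, *Lrp2*, *Cubn* and *Slc5a12*, all with UMIs in both libraries, summed to 33511 CPM for young members and to 7697 CPM for old members. They made up a median of 0.362% of a young and 0.102% of an old member's UMIs. A smaller cloud of barcodes stood above 1%, 19 young (15.6%) and 52 old (4.64%) members, which held 41.0% and 15.1% of all member UMIs at medians of 17207 and 19437.5 UMIs per barcode. Scrublet called 7 of these 19 and 31 of these 52 doublets. Values are therefore also given for the 103 young and 1068 old members at or below 1%, called tubule-poor, with medians of 4963 and 5167 UMIs (summed 568116 and 6398329). The limit of 1% was chosen after the data were seen. CD8 T cells held 22 young and 46 old such barcodes, with 36.3 and 11.6% of their UMIs.

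**Figure D1:**
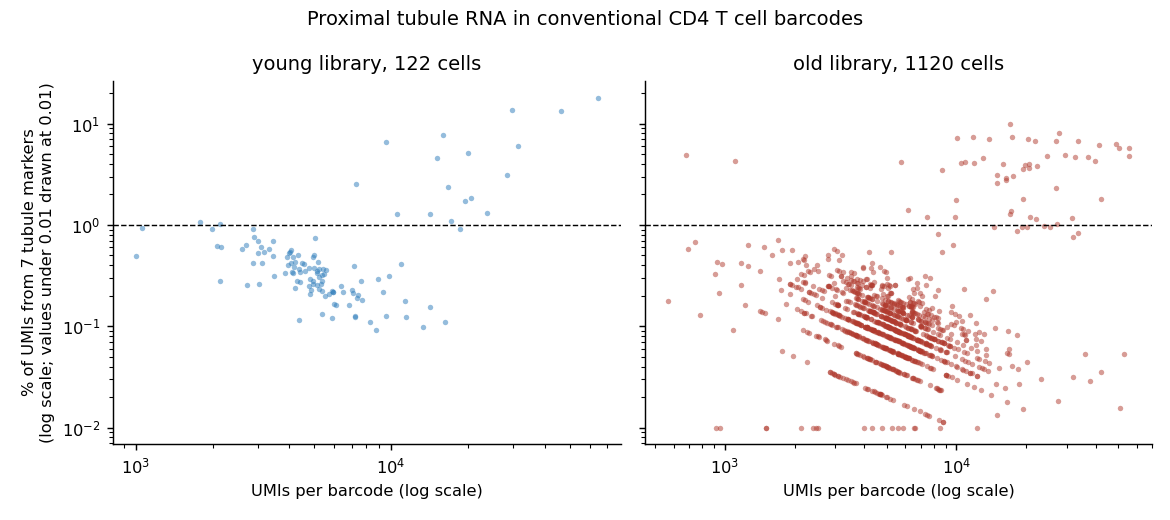
Each point is a conventional CD4 T cell barcode of the young (left) or old (right) library, with its UMI count on the x axis and the percentage of its UMIs from 7 proximal tubule markers on the y axis, both on log scales. The dashed line at 1% divides the 19 young and 52 old barcodes of the upper cloud, mostly of high UMI count, from the tubule-poor members below it.

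Which genes separated old from young CD4 T cells was examined over genes with a mean level of at least 25 CPM. Of 5290 such genes, 267 (5.05%) were at least 2-fold higher and 430 (8.13%) at least 2-fold lower in old members. In tubule-poor members, 175 (3.52%) of 4969 genes were higher and 102 (2.05%) were lower, so that the lower side outnumbered the higher side with the tubule-rich barcodes and not without them. The median log2 ratio of old over young was 0.08 over all genes tested in all members and 0.06 in tubule-poor members. For the 14 genes of T cell identity, such as *Trac*, *Trbc2* and *Lck*, the median was 0.76 in all members and 0.42 in tubule-poor members. Genes shared by all T cells thus lay, at the median, on the old side too, and medians of other lists are to be read beside these. The part of tubule RNA in the differences was not tested further.

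The 9 genes reported from the old end of a ranking among genes of at least 50 CPM found in at least 10% of members and at least 2-fold above proximal tubule barcodes included genes known from effector and cytotoxic T cells. *Eomes*, a T-box transcription factor of cytotoxic lymphocytes (chromosome 9, 118478212 to 118486132), led the ranking with 4 UMIs in 4 young members and 866 UMIs in 272 old members, which is 4.16 CPM (95% Poisson interval 1.13 to 10.6) against 115 CPM (107 to 123). Its log2 ratio was 4.79 (3.43 to 6.67) in all members and 5.19 (3.33 to 8.24) in tubule-poor members, where the young side held 2 UMIs. *Ccl5*, a chemokine of effector T cells, stood at 407 CPM in young and 3287 CPM in old members, and at 309.8 and 3748 CPM in tubule-poor members (log2 ratio 3.60, 3.38 to 3.82). The young *Ccl5* signal lay in few cells, since its 392 UMIs came from 17 young members, and 5 of these held 88.0% of them. In old members 24762 UMIs came from 511 cells, of which the 5 highest held 8.75%. These shares rest on unlike numbers of cells, so they do not compare how evenly the UMIs were spread.

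The inhibitory receptor gene *Lag3* stood at 19.7 and 153 CPM in young and old members, and *Ctla4*, the inhibitory counterpart of CD28, had 68.6 and 300.2 CPM. *Ctla4* was detected in 24.6% of young and 63.6% of old members, and after thinning every cell to 1000 UMIs, which left out 11 old members, in 8.20% and 24.9% (22.4 to 27.5%), against 0.0149 and 0.0303% of thinned proximal tubule barcodes, which should lack it. *Tnfsf8*, the ligand CD30L (chromosome 4, 63831308 to 63861347), rested on 60 young and 2627 old UMIs, 62.3 and 349 CPM, with a log2 ratio of 2.48 in all members and 2.07 (1.68 to 2.50) in tubule-poor members. *Ctla4* was thus found in a larger share of old than of young members at equal depth, too. The rest of this group were the granule protease gene *Gzmk* (15.6 and 115 CPM), the protease inhibitor genes *Ctla2a* (50.9 and 258 CPM) and *Cst7* (24.9 and 113 CPM), and *Il2rb*, the β chain of the IL-2 and IL-15 receptors (54.0 and 189 CPM). In tubule-poor members all 9 kept a ratio of at least 2-fold, the smallest being that of *Il2rb* at a log2 ratio of 1.36 (0.94 to 1.81). Each of the 9 was also higher in old than in young tubule-poor CD8 T cells. *Eomes* had 35.5 and 199 CPM in young and old CD8 T cells, *Lag3* 36.7 and 153 CPM, and *Il2rb* 225 and 241 CPM.

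Of the 10 genes furthest on the young side, *Satb1*, *Ccr7*, *Lef1* and *Dapl1* were on the list of naive genes. *Satb1*, a chromatin organiser of developing and naive T cells (chromosome 17, 51736187 to 51833290), stood at 300.3 CPM in young and 39.0 CPM in old members, and at 452 and 44.5 CPM in tubule-poor members (log2 ratio -3.34, -3.59 to -3.10). It was detected in 56.6% of young members and in 14.3% of old members, and in 24.6 and 4.33% after thinning. *Ccr7* (chromosome 11, 99144196 to 99155077) was similar, with 294 and 57.7 CPM and a UMI in 52.5 and 15.1% of members. Both genes were at or below 0.238% of thinned proximal tubule barcodes in either library. *Lef1*, a transcription factor that keeps T cells naive, had 209.9 and 50.5 CPM. *Dapl1*, a gene known from naive T cells, had 90.4 and 15.5 CPM, and its UMIs were confined to 19 young and 32 old members. The cytoskeletal genes *Actn1* (91.4 and 12.6 CPM) and *Rflnb* (106 and 17.8 CPM), *Cd7* (89.4 and 29.6 CPM), *Rgs10*, a regulator of G protein signalling (181 and 75.3 CPM), and *Frat2*, a Wnt pathway gene (90.4 and 43.7 CPM), followed the same direction. *Apoe*, which encodes an apolipoprotein of macrophages and tubule cells, also met the rule with 444 and 69.3 CPM, but its 427 young UMIs came from 13 members and it was found in 12.1% of thinned young proximal tubule barcodes, above the 3.28% of thinned young members. At least 2 of 7 macrophage markers were present in 3 young and 12 old members, with list sums of 299 and 169 CPM. All 10 kept a ratio of at least 2-fold in tubule-poor members.

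**Figure D2:**
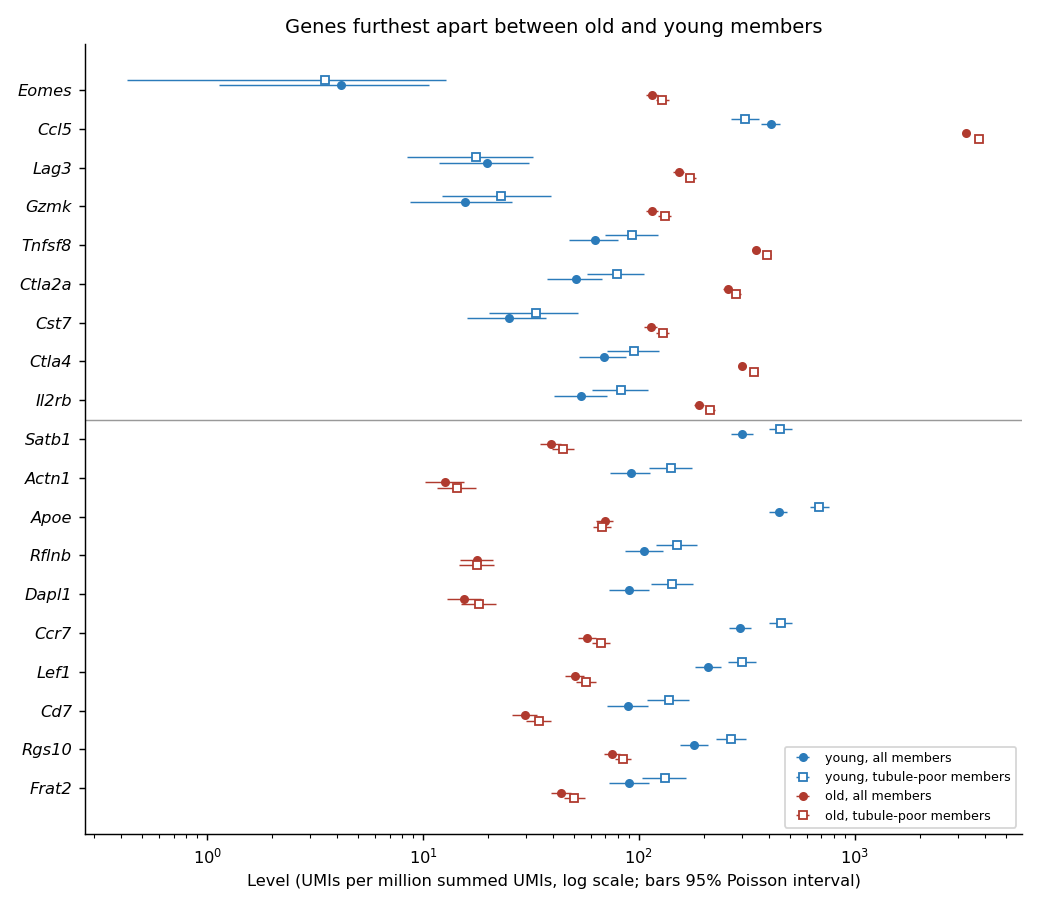
Levels in CPM (x axis, log scale) of 9 genes of the old end (top) and the 10 furthest on the young side (bottom), in young (blue) and old (red) conventional CD4 T cells. Filled circles are all members, open squares the tubule-poor members, and bars are 95% Poisson intervals. The blue and red intervals of every gene are apart in both sets of cells.

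Since each library pooled mice, the direction of these 19 genes was also read among members with *Xist* and no Y-linked UMI (18 young and 395 old) and among those with the reverse (63 and 397). Whether these came from different mice of the pools was not tested, and 35 young and 268 old members had neither signal and 6 and 60 had both. The 19 genes had been chosen for their ratios over all members, these cells included, so a shared direction is no independent check. All 9 genes of the old side had the same direction in both groups of cells, and so did 9 of the 10 genes of the young side. *Apoe* was the exception, with a log2 ratio of 1.26 on 4 young UMIs (-0.12 to 3.15) in cells with *Xist* and -3.47 in cells with Y-linked UMIs. *Eomes* had 0 young and 361 old UMIs in the former, a log2 ratio of at least 2.57 with the young side set at 3 counts, and 1 and 281 UMIs in the latter. *Gzmk* and *Lag3* likewise had 0 young UMIs in the cells with *Xist*.

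Gene lists showed how widely each program differed. Of 12 measured naive and recirculating genes, 5 were at least 2-fold lower in old members (median log2 ratio -0.78), against 8.13% of all genes. None was higher, against 5.05% of all genes. In tubule-poor members 7 of 12 were lower (-1.18), against 2.05% of all genes. Besides *Satb1*, *Ccr7*, *Lef1* and *Dapl1*, these were *S1pr1*, the receptor for exit from lymph nodes, at 234 and 102 CPM in young and old tubule-poor members, *Igfbp4* at 380.2 and 39.4 CPM and *Bach2*, a repressor of effector genes, at 47.5 and 21.1 CPM. Other naive genes differed less. *Tcf7*, a partner of *Lef1*, had 361 and 187 CPM, *Klf2*, which drives *S1pr1*, had 1250 and 779.7 CPM, and *Il7r*, the receptor of a survival cytokine, had 408 and 431 CPM with a log2 ratio of 0.08 (-0.12 to 0.28) in tubule-poor members.

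The effector and memory list lay on the opposite side, with 10 of 15 genes at least 2-fold higher in old members (median 1.17), against 5.05% of all genes. None was lower, against 8.13% of all genes. Leaving out the tubule-rich barcodes reduced this to 3 of 15 (median 0.75), against 3.52% of all genes. The 3 were *Ccl5*, the calcium-binding protein gene *S100a4*, at 542 CPM (483 to 606) and 1252 CPM (1225 to 1280) in young and old tubule-poor members, and its relative *S100a11*, at 473 and 1072 CPM. *Cd44*, the adhesion receptor of antigen-experienced T cells, had 96.8 and 186 CPM, just under 2-fold in tubule-poor members, and *Itgb1*, the integrin β1 chain, had 363 and 683 CPM.

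**Figure D3:**
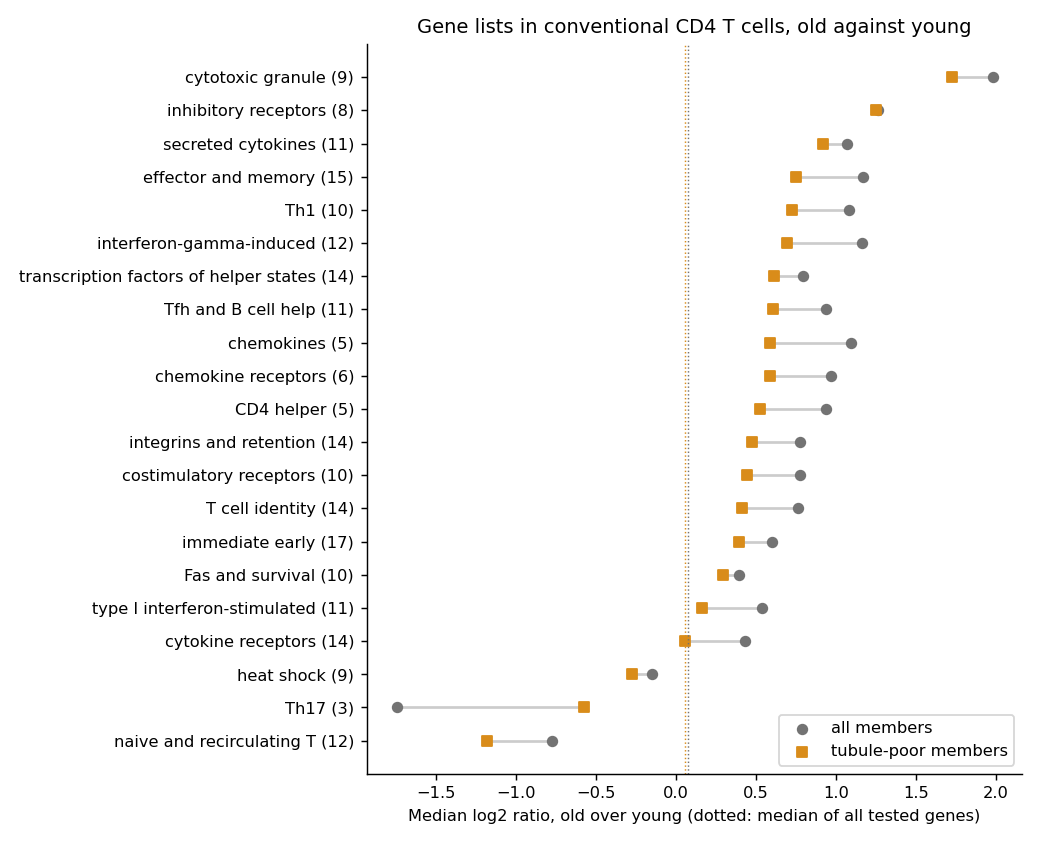
Median log2 ratio of old over young (x axis) for the 21 gene lists with at least 3 measured genes in conventional CD4 T cells, with the number of genes measured in tubule-poor members in brackets. Grey circles are all members, orange squares the tubule-poor members, and dotted lines mark the medians over all genes tested (0.08 and 0.06). Cytotoxic granule genes lie furthest on the old side and naive genes furthest on the young side among tubule-poor members.

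Among helper programs, genes of type 1 helper (Th1) cells were measured most fully. In all members 5 of 9 Th1 genes were at least 2-fold higher in old cells (median 1.08), and in tubule-poor members 1 of 10 (0.73), which was *Ifng*, against 5.05 and 3.52% of all genes. *Ifng*, the gene of interferon-γ (chromosome 10, 118441046 to 118445892), stood at 111 and 375 CPM in all members, and in tubule-poor members at 143 CPM (113 to 177) in young and 426 CPM (410.2 to 442) in old cells. It was detected in 26.2% of young and 59.1% of old tubule-poor members, and in 11.5 and 28.2% of all members after thinning, against 0.0298 and 0.0303% of proximal tubule barcodes. The Th1 regulator gene *Tbx21* was low at both ages, at 21.1 and 32.5 CPM, with a log2 ratio of 0.62 whose interval included 0 (-0.21 to 1.60). *Cxcr3*, the Th1 chemokine receptor gene, had 96.8 and 169 CPM, and *Il18r1*, a receptor chain for IL-18, had 63.4 and 121 CPM in the same cells.

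Other cytokines were sparse and uneven over cells. *Il17a* had no UMI in young members, a level below 3 UMIs, and 112 UMIs in 5 old members, 75 of them in 1 cell. *Il4* had 17 UMIs in 3 young and 10 UMIs in 6 old members. *Areg*, which encodes the repair factor amphiregulin, had 63 UMIs in 6 young members, 50 in a single cell, and 361 UMIs in 56 old members. Of 10 Th2 genes only the regulator gene *Gata3* reached 25 CPM, at 123 and 181 CPM in tubule-poor members, and of 10 Th17 genes 3 did. *Tmem176a* and *Tmem176b* of that list were more than 2-fold lower in all old members (534 and 153 CPM, 608 and 181 CPM) but not in tubule-poor members, where *Tmem176a* had 73.9 and 49.5 CPM. *Tnf* had 45.8 and 86.7 CPM in tubule-poor members, and *Ltb*, the most abundant cytokine gene of the list, was nearly level at 908 and 969 CPM. Of 11 measured cytokine genes in tubule-poor members, 5 were at least 2-fold higher in old cells, against 3.52% of all genes, and these were *Ifng*, *Il21*, *Csf1*, *Lta* and *Fasl*.

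*Il21*, the cytokine of follicular helper T cells that drives B cell differentiation (chromosome 3, 37222759 to 37232636), had 6 UMIs in 4 young members and 338 UMIs in 124 old members. In tubule-poor members these were 7.04 CPM (1.92 to 18.0) and 50.9 CPM (45.6 to 56.8), while tubule-poor CD8 T cells had 0 UMIs in the young library and 0.258 CPM in the old. The follicular helper list as a whole had 4 of 11 genes at least 2-fold higher in all old members (median 0.94), against 5.05% of all genes, and 3 of 11 in tubule-poor members (0.61), against 3.52%, which were *Il21*, *Pdcd1*, the PD-1 gene (45.8 and 101 CPM), and *Tox*, a transcription factor of chronically stimulated T cells (89.8 and 197 CPM). The defining follicular helper genes *Bcl6* and *Cxcr5* did not reach 25 CPM. *Maf*, which promotes *Il21*, had 298 and 453 CPM in tubule-poor members, and *Cd40lg* (chromosome X, 57212143 to 57224042) had 116 CPM (89.8 to 148) and 122 CPM (114 to 131), a log2 ratio of 0.08 (-0.29 to 0.46).

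Old members with an *Il21* UMI differed in some genes from old members without one. Among 115 tubule-poor members with and 953 without it (medians 6004 and 5136 UMIs), *Tnfsf8* was at 1132 and 280.2 CPM, *Tnfrsf4*, the OX40 gene, at 421 and 123 CPM, *Lag3* at 350.1 and 146 CPM and *Cd200*, an inhibitory ligand of follicular helper cells, at 187 and 43.9 CPM. *Sostdc1*, an antagonist of Wnt and BMP signalling, was at 332 and 12.1 CPM and found in 29 and 15 of these cells. *Ccl5* had the reverse order, with 455 and 4250 CPM (4195 to 4304), and so did *Gzmk*, with 16.6 and 149 CPM, whereas *Ifng* had similar levels of 412 and 428 CPM. These genes were chosen after their values were seen, in 1 library. *Cxcr5* was scarce in both groups, at 8.28 CPM (3.33 to 17.1) and 10.3 CPM (7.78 to 13.3).

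The cytotoxic granule list had the highest median of all lists among tubule-poor members. In all members 6 of 8 genes were at least 2-fold higher in old cells (median 1.98), and in tubule-poor members 6 of 9 (1.73), against 5.05 and 3.52% of all genes. *Nkg7*, a granule membrane protein gene, was the most abundant of those that differed, at 502 CPM (445 to 563) in young and 1396 CPM (1367 to 1425) in old tubule-poor members, and it was found in 33.0 and 72.9% of them. The perforin gene *Prf1* had 21.1 and 69.9 CPM, *Serpinb6b*, a protease inhibitor gene, had 10.6 and 42.7 CPM, and *Gzmb* had 3 UMIs in young and 625 in old tubule-poor cells (log2 ratio 4.21, 2.66 to 6.49). *Gzma* had 1 young UMI in these cells and 758 old UMIs (6.07, 3.59 to 11.4), found in only 4.31% of the old cells. Ratios were under 2-fold for *Srgn*, the granule proteoglycan gene (1186 and 1386 CPM), and *Ctsw*, a cathepsin gene of cytotoxic cells (116 and 138 CPM). Tubule-poor CD8 T cells of the old library had more *Nkg7* (2869 CPM), *Gzmb* (755 CPM), *Gzma* (728 CPM), *Ctsw* (474 CPM), *Prf1* (219.9 CPM) and *Serpinb6b* (70.75 CPM). They had less *Srgn*, at 1154 CPM.

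Surface receptors of regulation differed by kind. Among inhibitory receptors, 5 of 8 genes measured in tubule-poor members were at least 2-fold higher in old cells (median 1.25), and 4 of 7 in all members (1.27), against 3.52 and 5.05% of all genes. They were *Pdcd1*, *Lag3*, *Ctla4* and the ectoenzyme genes *Entpd1* (14.1 and 36.1 CPM) and *Nt5e* (12.3 and 51.6 CPM), which convert extracellular ATP to adenosine. *Vsir*, the gene of VISTA, was level at 132 and 133 CPM. Costimulatory receptors had 1 of 10 genes higher, *Tnfrsf4* (81.0 and 163 CPM), and 1 lower, *Cd81* (148 and 43.4 CPM), against 3.52 and 2.05% of all genes, with *Cd28* at 517 and 733 CPM and a list median of 0.44. Tubule-poor members had 2 cytokine receptor genes higher, *Il2rb* and *Il10ra* (28.2 and 58.0 CPM), and 4 lower out of 14, against 3.52 and 2.05% of all genes, and the list median was 0.06. The lower ones were *Ifngr2*, a chain of the interferon-γ receptor, at 102 CPM (77.5 to 132) and 13.3 CPM (10.6 to 16.4), *Il6ra* at 143 and 50.9 CPM, *Il6st* at 44.0 and 21.6 CPM and *Il4ra* at 68.6 and 30.0 CPM. *Ifngr1*, the partner chain of *Ifngr2*, was at 227 and 303 CPM.

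Of the chemokine genes, most that were past 2-fold in all members were not so in tubule-poor members. In all members *Ccl3*, *Ccl4* and *Ccl5* of 5 measured chemokines were at least 2-fold higher in old cells, against 5.05% of all genes. In tubule-poor members only *Ccl5* was, against 3.52% of all genes. *Ccl4*, an inflammatory chemokine gene, had 313 and 530.3 CPM in those cells. Over all young members, tubule-rich ones included, its 186 UMIs came from 10 cells, of which 5 held 97.3%. Of 6 chemokine receptors measured in tubule-poor members, *Ccr7* was lower by at least 2-fold and none was higher, against 2.05 and 3.52% of all genes. *Cxcr6*, a receptor of tissue T cells, had 197 and 223 CPM and *Cxcr4* had 109 and 167 CPM. Among 14 integrin and retention genes, *Itga4*, the integrin α4 chain, had 217 CPM (179.9 to 258) and 508 CPM (491 to 526), and *Itgb7*, which pairs with it, had 271 and 229 CPM with an interval of the log2 ratio that included 0 (-0.24, -0.48 to 0.01). *Prdm1*, the gene of Blimp-1, a regulator of terminal effector and resident cells, had 4 UMIs in young and 302 UMIs in old tubule-poor members (2.74, 1.37 to 4.63). The only gene of this list lower by 2-fold was *S1pr1*, against 2.05% of all genes.

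Interferon genes were mixed. Of genes induced mainly by interferon-γ, 10 of 13 were at least 2-fold higher in all old members (median 1.16), against 5.05% of all genes, but only *Gbp7*, a guanylate-binding protein gene (44.0 and 100.2 CPM), and *Nlrc5*, the regulator of MHC class I genes (21.1 and 49.4 CPM), of 12 in tubule-poor members (0.69), against 3.52%. *Psmb8*, an immunoproteasome gene and the most abundant of them, had 598 and 921 CPM there. In the type I interferon list, 2 of 11 genes were higher in tubule-poor members, against 3.52% of all genes, *Isg15* (35.2 and 91.0 CPM) and *Isg20* (19.4 and 59.2 CPM), and the median of 0.16 was below that of the T cell identity genes. *Ifi27l2a*, the most abundant member of the list, was level at 767 and 788 CPM.

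Transcription factors of helper states had 4 of 14 genes at least 2-fold higher in old tubule-poor members, against 3.52% of all genes. They were *Eomes*, *Prdm1*, *Tox* and *Bhlhe40*, a factor needed for cytokine output (246 and 550.0 CPM). In the same list 1 gene was lower, *Lef1*, against 2.05% of all genes. Of 17 immediate early genes, which respond to stimulation and to tissue dissociation, only *Dusp2*, a phosphatase gene, was higher by 2-fold there (380.2 and 906 CPM), against 3.52% of all genes. None was lower, against 2.05% of all genes, and *Fos* had 1116 and 1203 CPM. No gene of the 9 heat shock genes differed by 2-fold (median -0.27), against 3.52% of all genes higher and 2.05% lower. In the Fas and survival list of 10 genes, *Fasl*, the ligand of Fas, was the single gene past 2-fold, against 3.52% of all genes on the higher side. It had 54.6 CPM (37.1 to 77.4) and 133 CPM (125 to 143). *Fas* itself had 35.2 CPM (21.5 to 54.4) and 20.8 CPM (17.4 to 24.6), and the survival gene *Bcl2* was level at 315 and 303 CPM.

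What set the CD4 T cells apart from other T cells was read within each library. CD8 T cells were chosen by the same limits with a *Cd8a* or *Cd8b1* UMI and none of *Cd4*, *Foxp3* and *Trdc* (175 young and 1168 old barcodes). Of 5216 genes in the young library, 100 (1.92%) were at least 2-fold higher in CD4 than in CD8 T cells, and of 5247 in the old library 82 (1.56%). At least 2-fold higher in CD8 T cells were 112 (2.15%) and 69 (1.32%) genes. Of 4722 genes measured in both libraries, 25 were higher in CD4 and 33 higher in CD8 T cells in both. The 10 that exceeded CD8 T cells most in both libraries included ligands and receptors through which T cells help other cells. *Cd40lg* had 73.8 CPM in young CD4 and 9.35 CPM in young CD8 T cells, and 109 and 1.25 CPM in old ones. *Tnfsf8* had 62.3 and 3.90 CPM in the young library and 349 and 14.4 CPM in the old, and *Tnfrsf4* 62.3 and 3.12 CPM, then 147 and 5.70 CPM. *Tnfsf11*, the gene of the osteoclast factor RANKL, had 45.7 and 14.8 CPM, then 81.9 and 6.61 CPM.

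The other genes of this group were *Tbc1d4*, a regulator of glucose transport, *Il6ra*, *Izumo1r*, the folate receptor 4 gene, *Tspan32*, *Spry1*, an inhibitor of receptor tyrosine kinase signalling, and *S1pr1*. Without the tubule-rich barcodes of both classes all 10 stayed above 2-fold in both libraries. *S1pr1* was then the lowest, with log2 ratios of 1.28 (0.86 to 1.70) in the young and 1.27 in the old library. *Tnfrsf4* had the highest ratio in the young library, 4.05 (2.60 to 5.99), and *Cd40lg* in the old, 6.43 (5.59 to 7.44), with 2.99 (2.08 to 4.01) in the young. They were not all particular to conventional CD4 T cells, since after thinning *Tnfrsf4* was found in 13.7% of old members and in 41.6% of 113 old barcodes with a *Foxp3* UMI, and *Izumo1r* in 8.57 and 31.0%.

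Coreceptor-negative barcodes, with a CD3 UMI and none of *Cd4*, *Cd8a*, *Cd8b1*, *Foxp3* and *Trdc* (693 young and 2188 old barcodes), can include CD4 or CD8 T cells whose coreceptor RNA was missed, but in the young library few of them carried T cell genes. *Trac* was detected in 22.8% of them there and in 69.7% in the old library, and markers of group 2 innate lymphoid cells (ILC2s) were common in the young ones, with *Il1rl1* in 40.4% and *Hs3st1* in 41.0%, against 2.61 and 3.25% of the old ones. The part of ILC2s in the young values of these barcodes was not tested. CD4 T cells were at least 2-fold above them for 164 (3.02%) of 5428 genes in the young and 238 (4.29%) of 5552 genes in the old library. They were at least 2-fold below for 282 (5.2%) and 714 (12.9%) genes. Of 5026 genes measured in both libraries, 87 were below and 54 above in both. The leading genes were *Tnfrsf4*, *Tnfsf8*, *Cd40lg*, the adhesion gene *Cd2*, the receptor genes *Cd5* and *Cd6*, which dampen T cell receptor signals, *Tbc1d4*, the sulfotransferase gene *Chst2*, the interferon-stimulated gene *Ifi27l2a* and the transcription factor gene *Batf*. *Cd2* had 356 and 93.0 CPM in young and 472 and 105 CPM in old tubule-poor cells. *Cd5* had 188 and 30.9 CPM, then 267 and 94.8 CPM. All 10 stayed above 2-fold without the tubule-rich barcodes, which held 48.5 and 43.2% of the UMIs of coreceptor-negative cells.

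T cell receptor β V segments, which the rule did not use, were captured sparsely by the 3′ reads. A single *Trbv* segment was found in 17 young members (13.9%) and 161 old members (14.4%). *Trbv12-2* (7 of 17 and 40 of 161 cells, 41.2 and 24.8%, 18.4 to 67.1% and 18.4 to 32.3%) and *Trbv2* (23.5 and 23.6%) were the most frequent in both libraries, and old members used 15 of 35 segments. The intervals of the libraries overlapped for both.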

How the data were processed

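Single cells from pooled kidneys of young and of old MRL-*lpr* mice were loaded on 10x Chromium 3′ v3.1, 1 library per age. The authors' processing notes name Cell Ranger 3 and mm10, and the deposited matrices hold UMI counts for 31053 genes per barcode, without normalization. No count was changed here.

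Barcodes were filtered by the study's stated limits of 200 genes and 20% mitochondrial UMIs. UMIs of a class were summed and scaled to 1000000 (CPM), with exact Poisson intervals for levels, Clopper-Pearson intervals for shares and exact binomial intervals for log2 ratios, all at 95%. A gene at 0 was given 3 counts. With 1 library per age no test was run, and genes with a mean of at least 25 CPM were counted when past 2-fold. Doublets were called with Scrublet in scanpy 1.11.5 and kept. Cells were thinned with seed 7. Python 3.11.15, numpy 2.4.6, scipy 1.17.1, pandas 2.3.3 and matplotlib 3.10.9 were used. The code for log2 ratios and their intervals was run on simulated Poisson counts, which hold no variation between cells or libraries. Gene positions are from GENCODE on GRCm38 (mm10).

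Members and gene lists were chosen with earlier results of these data known. Named genes were the 2 to 5 of highest level in each of 22 lists with any past 2-fold, the 10 genes at each end of the ratio of old over young (at least 50 CPM, 10% of cells and 2-fold above proximal tubule barcodes, leaving out rule, mitochondrial, ribosomal, hemoglobin, immunoglobulin, V segment and sex-linked genes), and the 10 that most exceeded CD8 T cells and coreceptor-negative barcodes by the smaller ratio of the libraries. *Sostdc1* and the genes compared by *Il21* were chosen after their values were seen. Alternatives were other UMI minimums, other filters on cells and genes, doublet removal, other thinning depths and the mean of each cell's CPM. Removal of barcodes with markers of another lineage, proximal tubule included, was a further one. Chosen after seeing the data were exclusion of tubule-rich barcodes, and removal of barcodes with other lineage markers when proximal tubule markers were set aside. Results on 2 genes, 1 of them from the old end of the ranking, are not reported here, and both were left out of the lists.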

Additional observations from a re-analysis of the deposited data

Results flagged for a closer look

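*Apoe* was flagged because its ratio of old over young had opposite directions in groups of cells. Its log2 ratio was -2.679 in conventional CD4 T cells and 2.511 in CD8 T cells, and within the CD4 T cells it was 1.264 (-0.12 to 3.15, on 4 young UMIs) in members with *Xist* and no Y-linked UMI and -3.471 in those with Y-linked UMIs and no *Xist*. The differences between these groups were not tested, since each age has 1 library. In tubule-poor members, where the log2 ratio was -3.35, 389 young UMIs of *Apoe* came from 8 of 103 and 431 old UMIs from 83 of 1068 cells. Among the genes of the lists and the named genes, no other was past 2-fold in opposite directions in these comparisons.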

How the results depend on the processing

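No paired analysis was possible because each age has 1 library and no fit compares replicates, and for the same reason no library could be left out in turn. Of 91 counts recomputed under the alternatives, 63 stayed within 1.5 times and 28 did not, and the cause was not tested. Of 228 recomputed ratios of the 19 named genes, 222 kept their direction and a size of 2-fold, 5 kept the direction at less than 2-fold, and *Apoe* turned to 1.26 among members with *Xist* alone.

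The main counts were 267 genes higher and 430 lower in old members, 25 genes above CD8 T cells and 54 above coreceptor-negative barcodes in both libraries. Without a filter on low values they became 1260, 2537, 136 and 261, and at a mean of at least 100 CPM they became 74, 150, 2 and 16. Leaving out tubule-rich barcodes gave 175 higher, 102 lower and 30 above coreceptor-negative barcodes. Keeping genes at least 2-fold above proximal tubule barcodes gave 22 lower, and the mean of each cell's CPM gave 243 lower and 29 above coreceptor-negative barcodes. A minimum of 2 *Cd4* UMIs left 50 young and 712 old members and 153 lower genes, and a minimum of 3 CD3 UMIs gave 12 genes above coreceptor-negative barcodes. Members with *Xist* alone numbered 18 and 395, with 502 higher genes, and those with Y-linked UMIs alone 63 and 397. Removing barcodes with at least 2 markers of another lineage, proximal tubule included, left 11 young and 357 old members, with 695 higher genes and 17 above coreceptor-negative barcodes. With proximal tubule markers set aside, 108 genes were above coreceptor-negative barcodes.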
